A study of Homo sapiens with 3 samples.

Results

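The enzymes described here remove an amino group from adenosine or cytidine in RNA or DNA. Their 10 genes are ADAR, ADARB1, ADAT1, ADAT2, ADAT3, APOBEC3B, APOBEC3C, APOBEC3F, APOBEC3G and APOBEC3H, and they were chosen by symbol from a table of 58333 genes. All 10 were found in the table, and 9 passed the filter on low values, which was a mean of 10 normalized counts over all libraries. APOBEC3H did not pass and was described by its reads alone. The cells were Cal62, an established human line of thyroid cancer, and each library was made from poly(A)+ RNA of cells in DMEM with fetal bovine serum. Every culture received an siRNA with Lipofectamine RNAimax. The siControl cells received a Silencer Select negative control siRNA, and the other cells received 1 of 2 siRNAs against ADAR, the gene of the ADAR1 protein (siADAR1 #1 or siADAR1 #2). The study's methods give 2 biologically independent replicates of each transfection, which makes 6 libraries, and the labels name 1 sample per transfection without saying how the replicates were grown. All values come from 1 cell line, and the time from transfection to RNA isolation is not given for these libraries in the sources used here.

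Adenosine deamination turns A into inosine, which the cell reads as G. ADAR and ADARB1 do this in double-stranded stretches of mRNA and other transcripts, and the ADAR protein exists as a short nuclear form and a longer form whose promoter answers to interferon. The ADAT enzymes act on tRNA: ADAT1 modifies a position next to the anticodon of the alanine tRNA, whereas ADAT2 and ADAT3 form a heterodimer that makes inosine at the wobble position of several tRNAs. The APOBEC3 enzymes turn cytidine into uridine in single-stranded DNA, restrict retroviruses and retrotransposons, and lie side by side on chromosome 22. APOBEC3B is also known as a source of mutations in tumors.

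These enzymes share a zinc-binding core in which a histidine is followed, after 1 residue, by a position that holds the catalytic glutamate in active enzymes. The coding stretch around this core is shown for 7 of the 13 cores found in the 10 genes, because the likeness between these sequences bears on whether reads of neighbouring genes can be told apart. Each stretch is 39 bases long, 5′ to 3′ on the coding strand (GRCh38, canonical transcripts of GENCODE release 44). The capitals mark the histidine codon, the codon after it and the codon at the glutamate position.
ADAR: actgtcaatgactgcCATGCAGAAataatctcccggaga
ADARB1: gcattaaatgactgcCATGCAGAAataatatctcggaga
ADAT1: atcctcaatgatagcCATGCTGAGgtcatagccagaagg
ADAT2: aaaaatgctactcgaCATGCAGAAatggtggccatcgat
ADAT3: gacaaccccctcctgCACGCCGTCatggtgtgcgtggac
APOBEC3C: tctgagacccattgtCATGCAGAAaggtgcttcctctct
APOBEC3F (second core): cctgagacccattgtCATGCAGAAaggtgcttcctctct
These stretches lie in coding exons, that of ADAR at chr1:154589380-154589418 in exon 9 of 15 on the minus strand and that of ADARB1 at chr21:45182671-45182709 in exon 6 of 11 on the plus strand. The ADAT1 stretch lies at chr16:75618597-75618635 in exon 4 of 10 on the minus strand, and the ADAT3 stretch at chr19:1912747-1912785 in exon 2 of 2 on the plus strand. The ADAT2 stretch is joined from 2 exons between chr6:143433949-143438595 on the minus strand. On the plus strand of chromosome 22, the APOBEC3C stretch lies at chr22:39017772-39017810 in exon 3 of 4 and the APOBEC3F stretch at chr22:39052080-39052118 in exon 6 of 7.

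The search for cores asked for a histidine codon, an alanine or proline codon and then a glutamate or valine codon. Proline and cysteine codons had to follow further on. Cores with another codon at the glutamate position could not be found, so the count describes only those admitted. The glutamate codon was present in 12 of the 13 cores, and ADAT3, the partner of ADAT2 that is known to lack catalytic activity of its own, carries a valine codon in its place. APOBEC3B, APOBEC3F and APOBEC3G have 2 cores each. The stretch of APOBEC3C and the second of APOBEC3F shared 38 of 39 bases, and those of ADAR and ADARB1 shared 33. Whole transcripts were less alike. When every 75-base stretch of a gene's transcripts was looked up in the transcripts of all other genes, 0.0746% of those of ADAR and 0% of those of ADARB1 and ADAT2 were found elsewhere. The share was 0.265% for APOBEC3C, 4.47% for APOBEC3G, 8.78% for APOBEC3F and 20% for APOBEC3B, of which APOBEC3A held the largest part with 11.1%. It was 27.3% for ADAT3, whose gene lies within that of SCAMP4, and 1.87% for ADAT1. Among the 10 genes, the counts of ADAT3 and APOBEC3B are thus the ones most open to shared reads. For normalization, the paper's methods prefer gene counts estimated with the program Salmon. They do not state how reads shared by genes were divided.

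The libraries held 30114840 to 50029763 gene-assigned reads, and 3 reads corresponded to 2.81 to 4.39 normalized counts. Library values differed most between the siADAR1 #2 libraries and the other 4, along a principal component that held 49.1% of the variance. Component 2, with 25.0%, separated the siControl libraries (60.8 and 50.8) from the siADAR1 libraries (-57.3 to -6.31). Component 3, with 11.2%, separated replicate 1 from replicate 2. Among markers of thyroid cells, PAX8 had 12789 and 15557 reads with siControl, 10984 and 12000 with siADAR1 #1, and 2242 and 3744 with siADAR1 #2. NKX2-1 had 0 reads in every library, and TG and SLC5A5 had at most 55, whereas TSHR had 33 to 84 and FOXE1 48 to 229, so the other markers of thyroid cells were low or at 0 beside PAX8. The summed normalized count of 4 epithelial markers was 61622 to 103010 over all libraries. The 3 mesenchymal markers VIM, CDH2 and FN1 summed to 269905 and 281768 with siControl and to 78846 to 152930 in the siADAR1 libraries. Of 8 immune cell markers, CD3E and CD2 had 0 reads in every library and the sum of all 8 was 8.79 to 33.9 normalized counts. Immune cells, a common source of APOBEC3 transcripts in tissue, thus left almost no reads of their own markers. In such bulk RNA, fewer expressing cells and less RNA per cell cannot be told apart.

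ADAR was the most abundant of the deaminase transcripts in the siControl libraries, followed at a distance by APOBEC3C and ADAT1. Per kilobase of exon, the mean level was 923 ± 45.9 normalized counts for ADAR, 367 ± 32.6 for APOBEC3C and 351 ± 24.8 for ADAT1 (SD, n = 2). ADARB1 followed with 89.5 ± 25.6, ADAT2 with 49.7 ± 11 and ADAT3 with 44.6 ± 3.31. The lowest levels per kilobase were those of APOBEC3F, with 24.3 ± 0.731, APOBEC3B, with 20.5 ± 10.8, APOBEC3G, with 8.71 ± 4.86, and APOBEC3H, with a mean of 0.870. The libraries of APOBEC3C overlapped with those of ADAT1 in this order, as did ADAT2 with ADAT3 and APOBEC3F with APOBEC3B, so these neighbours did not differ beyond their spread. APOBEC3B (28.1 and 12.9) and APOBEC3G (5.27 and 12.1) did not overlap but came close in siControl replicate 2. When the length of the longest transcript was used instead, ADAT1 (373) stood above APOBEC3C (367) and ADAT3 (61.8) above ADAT2 (53.8). The other ranks stayed as they were, with means of 21.1 for APOBEC3B and 16.9 for APOBEC3G.

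**Figure D1:**
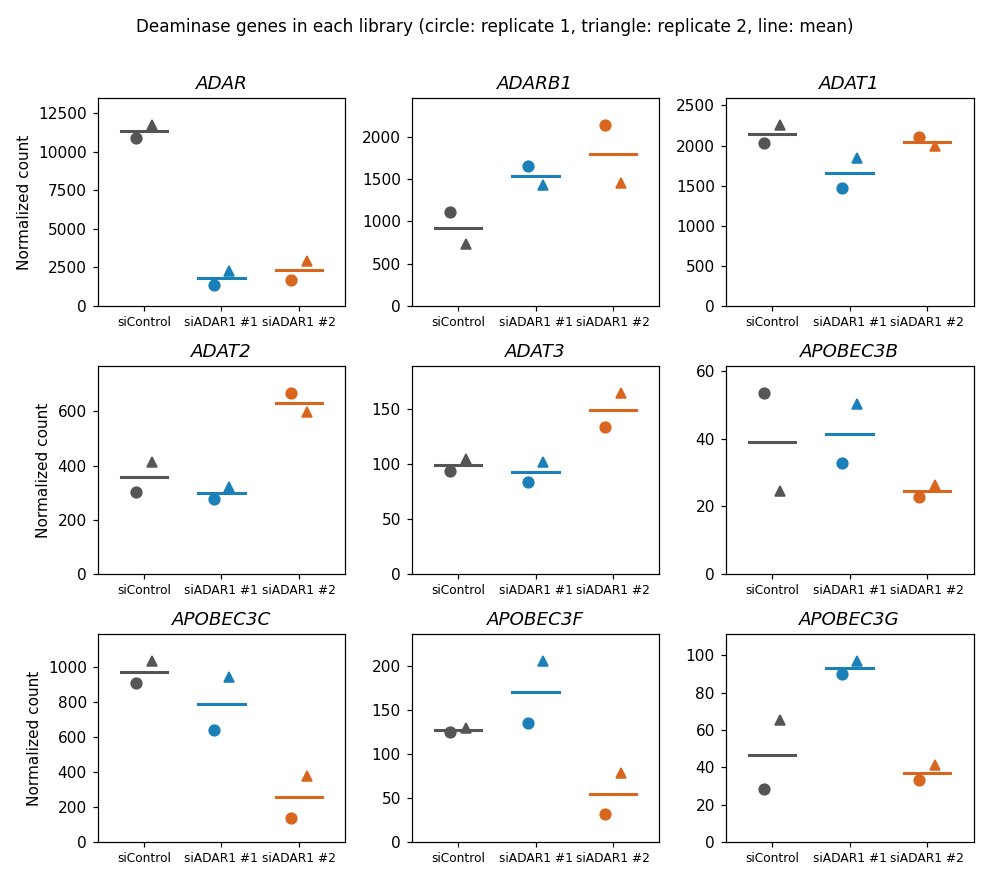
Normalized count (linear axis from 0) of 9 deaminase genes in each library, with replicate 1 as a circle, replicate 2 as a triangle and the mean of each transfection as a line. ADAR fell to 15.8% and 20.3% of its siControl mean with siADAR1 #1 and siADAR1 #2, ADARB1 lay higher in all siADAR1 libraries, and APOBEC3C and APOBEC3F were lowest with siADAR1 #2.

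Each siRNA was compared with siControl to see which deaminase transcripts changed besides the targeted one. A gene was called when its adjusted p-value (limma on the deposited log2 values, Benjamini-Hochberg adjustment over 20247 genes) was under 0.05 and its log2FC was beyond 0.5 in either direction. With siADAR1 #1, 1 of the 9 tested deaminase genes was called, the targeted ADAR itself, beside 17.4% of all genes tested (11% lower and 6.39% higher). With siADAR1 #2, 5 of the 9 were called, the targeted ADAR among them, beside 27.5% of all genes (16% lower and 11.6% higher). ADAR, APOBEC3C and APOBEC3F were lower and ADARB1 and ADAT2 were higher. Both comparisons used the same siControl libraries, so they are not independent of each other. The background for siADAR1 #1 was the less stable. It was 3518 genes with all libraries, 312 without siControl replicate 1, 1165 without siControl replicate 2 and 1291 without siADAR1 #1 replicate 1. The 5573 genes called for siADAR1 #2 became 3152 without siControl replicate 1 and 3105 without siADAR1 #2 replicate 1. The median log2 value of the tested genes differed by -0.14 between siADAR1 #1 and siControl. When libraries were centred on their medians, the calls for siADAR1 #1 turned from 2225 lower and 1293 higher to 1723 lower and 1938 higher. With quantile normalization they were 1827 lower and 1686 higher. The deaminase genes called for each siRNA were also called under both of these scalings, which in addition called ADARB1 as higher with siADAR1 #1.

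ADAR (ENSG00000160710, chr1:154581695-154628013, minus strand) had 10906 and 11701 normalized counts in the siControl libraries, 1328 and 2246 with siADAR1 #1, and 1663 and 2928 with siADAR1 #2. No siADAR1 library came near the siControl range, and with either siRNA replicate 1 was the lower one. The mean was 11304 ± 562 normalized counts with siControl, 1787 ± 649 with siADAR1 #1 (15.8% of siControl) and 2296 ± 894 with siADAR1 #2 (20.3%). The log2FC was -2.71 ± 0.30 (SE) with siADAR1 #1 (adjusted p = 0.00356, limma) and -2.35 ± 0.30 with siADAR1 #2 (adjusted p = 0.00153, limma). Both calls held under all 17 alternatives tried for each comparison. The difference between the siRNAs, 0.35 ± 0.30, did not pass the threshold (adjusted p = 0.406, limma). The counts are per gene and do not separate the transcripts of the nuclear and the interferon-inducible form.

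ADARB1 (ENSG00000197381, chr21:45073853-45226560, plus strand), which encodes ADAR2, the second editing enzyme of mRNA, lay higher in every siADAR1 library than in either siControl library. Its normalized counts were 1109 and 735 with siControl, 1655 and 1432 with siADAR1 #1, and 2141 and 1456 with siADAR1 #2. The siControl range did not overlap with that of either siRNA, the ranges of the siRNAs overlapped with each other, and in each group replicate 1 was the higher one. The mean with siADAR1 #1 was 167% of that with siControl (log2FC 0.77 ± 0.25), which missed the threshold (adjusted p = 0.0679, limma) passed it with the replicate number as a block (adjusted p = 0.00972), and was 0.47 (adjusted p = 0.309) without siControl replicate 2. With siADAR1 #2 the mean was 195% of siControl and the rise passed (log2FC 0.97 ± 0.25, adjusted p = 0.0218, limma). Without siControl replicate 2 the latter log2FC was 0.67 (adjusted p = 0.133), and without siADAR1 #2 replicate 1 it was 0.69 (adjusted p = 0.134). The responses to the siRNAs differed by 0.20 ± 0.25, which did not pass (adjusted p = 0.574, limma).

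The balance between the editing transcripts moved accordingly. Per kilobase of exon, the ADARB1 level was 12.1% and 7.47% of the ADAR level in the siControl libraries. It was 148% and 75.8% of it with siADAR1 #1, and 153% and 59.1% with siADAR1 #2. In replicate 1 of each siRNA, ADARB1 transcripts thus outnumbered those of ADAR, and in replicate 2 they did not. With the length of the longest transcript the same shares were 10.7% and 6.62%, then 131% and 67.2%, then 136% and 52.4%. Most of this shift came from ADAR: its mean level per kilobase fell from 923 to 146 and 188 normalized counts, whereas that of ADARB1 was 89.5, 150 and 175. The share is a ratio of transcript levels and carries no measure of editing.

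**Figure D2:**
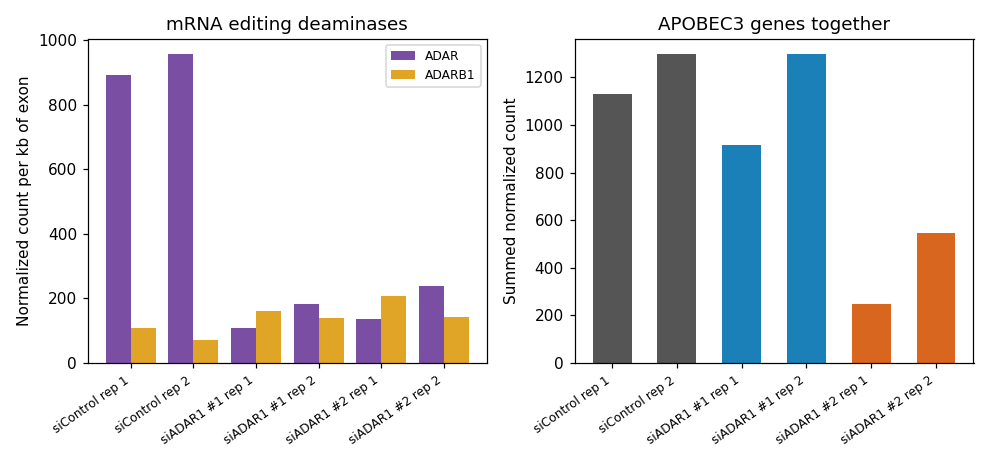
Bars from 0 for each library, with the level of ADAR and ADARB1 in normalized counts per kilobase of exon on the left and the summed normalized count of 7 APOBEC3 genes on the right. ADARB1 stayed below ADAR with siControl (12.1% and 7.47% of it) and exceeded it in replicate 1 of each siADAR1 group, and the APOBEC3 sum was lowest with siADAR1 #2, at 247 and 546.

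The tRNA deaminases did not move together. ADAT1 (ENSG00000065457, chr16:75596868-75623300, minus strand), which acts on the alanine tRNA, had 2037 and 2252 normalized counts with siControl, 1468 and 1840 with siADAR1 #1, and 2102 and 1995 with siADAR1 #2. The siADAR1 #1 libraries lay below the others, and those of siADAR1 #2 overlapped with siControl. The log2FC was -0.38 ± 0.15 with siADAR1 #1 (adjusted p = 0.115, limma) and -0.06 ± 0.15 with siADAR1 #2 (adjusted p = 0.780, limma), and neither passed. Without siADAR1 #1 replicate 2 the first of these was -0.54 and passed (adjusted p = 0.0493, limma).

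ADAT2 (ENSG00000189007, chr6:143422832-143450695, minus strand), the catalytic subunit of the wobble deaminase, rose with siADAR1 #2. It had 302 and 414 normalized counts with siControl, 276 and 319 with siADAR1 #1, and 667 and 599 with siADAR1 #2. The siADAR1 #2 libraries lay above the other 4, and those of siADAR1 #1 overlapped with siControl. The mean was 177% of siControl with siADAR1 #2 (log2FC 0.83 ± 0.20, adjusted p = 0.0189, limma) and 83.1% with siADAR1 #1 (log2FC -0.25 ± 0.20, adjusted p = 0.443, limma). The rise with siADAR1 #2 no longer passed without siControl replicate 1 (log2FC 0.61, adjusted p = 0.114), siADAR1 #2 replicate 1 (0.76, 0.111) or siADAR1 #2 replicate 2 (0.91, 0.0536).

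ADAT3 (ENSG00000213638, chr19:1905399-1913447, plus strand), the partner subunit with the valine codon shown above, had 93.7 and 104 normalized counts with siControl, 83.2 and 102 with siADAR1 #1, and 134 and 164 with siADAR1 #2. Both siADAR1 #2 libraries lay above the rest. The log2FC of 0.57 ± 0.24 with siADAR1 #2 did not pass (adjusted p = 0.116, limma), nor did that of -0.10 ± 0.24 with siADAR1 #1 (adjusted p = 0.821, limma), which was 0.04 with median-centred libraries. SCAMP4, the membrane protein gene that overlaps ADAT3 on the same strand, had 2136 and 2719 reads with siControl, 1361 and 1648 with siADAR1 #1, and 2352 and 1993 with siADAR1 #2. Its log2FC was -0.65 with siADAR1 #1 (adjusted p = 0.0858, limma) and 0.14 with siADAR1 #2 (adjusted p = 0.693, limma). How much of the ADAT3 count comes from SCAMP4 transcripts was not tested. Per kilobase of exon, ADAT2 was 0.992 and 1.23 times ADAT3 with siControl, and 1.02 and 0.966 times with siADAR1 #1. With siADAR1 #2 it was 1.53 and 1.12 times ADAT3. With the length of the longest transcript the same ratios were 0.774 and 0.957, then 0.797 and 0.754, then 1.198 and 0.878. Whether ADAT2 lay above ADAT3 thus depended on the length used in siControl replicate 2, siADAR1 #1 replicate 1 and siADAR1 #2 replicate 2.

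Of the APOBEC3 genes, APOBEC3C (ENSG00000244509, chr22:39014257-39020352, plus strand) was by far the most abundant. This gene encodes a restriction factor with a single core. It had 910 and 1032 normalized counts with siControl, 638 and 941 with siADAR1 #1, and 136 and 375 with siADAR1 #2, from 836, 1012, 682, 749, 120 and 256 reads. The siADAR1 #2 libraries lay well below the other 4, and those of siADAR1 #1 overlapped with siControl. The mean with siADAR1 #2 was 26.3% of siControl (log2FC -2.09 ± 0.43, adjusted p = 0.00905, limma). The replicates of siADAR1 #2 differed widely, and the log2FC was -1.36 without its replicate 1 and -2.81 without its replicate 2, both of which passed. The call was lost without siControl replicate 1 (adjusted p = 0.0616) or siControl replicate 2 (adjusted p = 0.0691), where the log2FC itself moved little. With siADAR1 #1 the log2FC was -0.32 ± 0.43 and did not pass (adjusted p = 0.649, limma).

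APOBEC3F (ENSG00000128394, chr22:39040604-39055972, plus strand), a restriction factor of retroviruses with 2 cores, had 124 and 130 normalized counts with siControl, 135 and 205 with siADAR1 #1, and 31.8 and 77.6 with siADAR1 #2. The ranges of the transfections did not overlap. With siADAR1 #2 the mean was 43.1% of siControl and the fall was near the threshold (log2FC -1.30 ± 0.41, adjusted p = 0.0483, limma). It passed under 8 of 17 alternatives. Without siADAR1 #2 replicate 1, which had 28 reads, the log2FC was -0.69 (adjusted p = 0.226), and the call was also lost without any 1 of the 4 siControl and siADAR1 #1 libraries (adjusted p = 0.0527 to 0.178). With siADAR1 #1 the log2FC was 0.38 ± 0.41 (adjusted p = 0.573, limma).

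APOBEC3G (ENSG00000239713, chr22:39077067-39087743, plus strand), known for hypermutating retroviral DNA, was a low transcript. Its normalized counts were 28.3 and 65.3 with siControl, 89.8 and 96.7 with siADAR1 #1, and 32.9 and 41.0 with siADAR1 #2, from 26 to 96 reads per library. The siADAR1 #1 libraries were the highest, and those of siADAR1 #2 lay within the siControl range. Neither comparison with siControl passed, with a log2FC of 1.07 ± 0.40 for siADAR1 #1 (adjusted p = 0.109, limma) and -0.22 ± 0.40 for siADAR1 #2 (adjusted p = 0.724, limma). Without siControl replicate 1 these were 0.50 and -0.79, and without siControl replicate 2 they were 1.64 and 0.35.

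APOBEC3B (ENSG00000179750, chr22:38982347-38992804, plus strand), the nuclear enzyme linked to mutations in tumors, was equally low. It had 53.4 and 24.5 normalized counts with siControl, 32.7 and 50.2 with siADAR1 #1, and 22.7 and 26.4 with siADAR1 #2. The ranges of all transfections overlapped with that of siControl. The log2FC was 0.15 ± 0.43 with siADAR1 #1 (adjusted p = 0.845, limma) and -0.53 ± 0.43 with siADAR1 #2 (adjusted p = 0.406, limma). The latter was -0.0011 without siControl replicate 1 and -1.05 without siControl replicate 2. The antisense gene APOBEC3B-AS1, which overlaps it, had 0 to 5 reads per library. APOBEC3H (ENSG00000100298, chr22:39097224-39104067, plus strand) had 2 reads in siControl replicate 1 and 0 in the other 5 libraries. Its level was under the limit of 3 reads in each of them, so a fall could not have been detected at this depth, and no siADAR1 library had a read.

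Summed over the 7 genes APOBEC3A, APOBEC3B, APOBEC3C, APOBEC3D, APOBEC3F, APOBEC3G and APOBEC3H, the cluster gave 1129 and 1296 normalized counts with siControl, 916 and 1296 with siADAR1 #1, and 247 and 546 with siADAR1 #2. APOBEC3C made up 80.6% and 79.6% of these reads with siControl, 69.7% and 72.6% with siADAR1 #1, and 55.0% and 68.6% with siADAR1 #2. The loss of APOBEC3C reads with siADAR1 #2 therefore accounts for most of the lower sum. The ratio of APOBEC3C to APOBEC3F reads was 7.33 and 7.97 with siControl and between 4.29 and 4.83 in the 4 siADAR1 libraries. APOBEC3A had 1 to 9 reads per library. APOBEC3D, between APOBEC3C and APOBEC3F, had 9 and 35 reads with siControl, 17 and 0 with siADAR1 #1, and 12 and 15 with siADAR1 #2. This gene shares 80.1% of its 75-base stretches with ENSG00000284554, a gene that runs through APOBEC3C and APOBEC3D. Together they had 15, 35, 17, 16, 12 and 15 reads in the same order, a sum that was chosen after the values were seen.

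Genes on either side of the APOBEC3 cluster, taken from a list, were examined as well. Of 12 tested flanking genes, 5 were lower and 0 higher with siADAR1 #1 (median log2FC -0.58), and 1 was lower and 2 were higher with siADAR1 #2 (median -0.25). Of all genes tested, 17.4% and 27.5% were called, so the share of flanking genes called with siADAR1 #2 (25%) was near the background. The median over all genes tested was -0.03 and -0.02. The Polycomb gene CBX7, the nearest of the listed genes beyond APOBEC3G, had a log2FC of -0.66 with siADAR1 #1 (adjusted p = 0.0269, limma) and of 1.63 with siADAR1 #2 (adjusted p = 0.000623, limma). CBX6, another Polycomb gene and the nearest listed one before APOBEC3B, fell with siADAR1 #1 (log2FC -1.52, adjusted p = 0.0033) and had a log2FC of -0.24 with siADAR1 #2. TAB1, a partner of the kinase TAK1, gave -1.64 (adjusted p = 0.00299) and -0.26. Among the tested APOBEC3 genes and the listed flanking genes, those lower with siADAR1 #2 were APOBEC3C, APOBEC3F and NPTXR. The listed genes nearest to the cluster, CBX6 and CBX7, were not among them. Genes of the region outside the list were not examined.

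**Figure D3:**
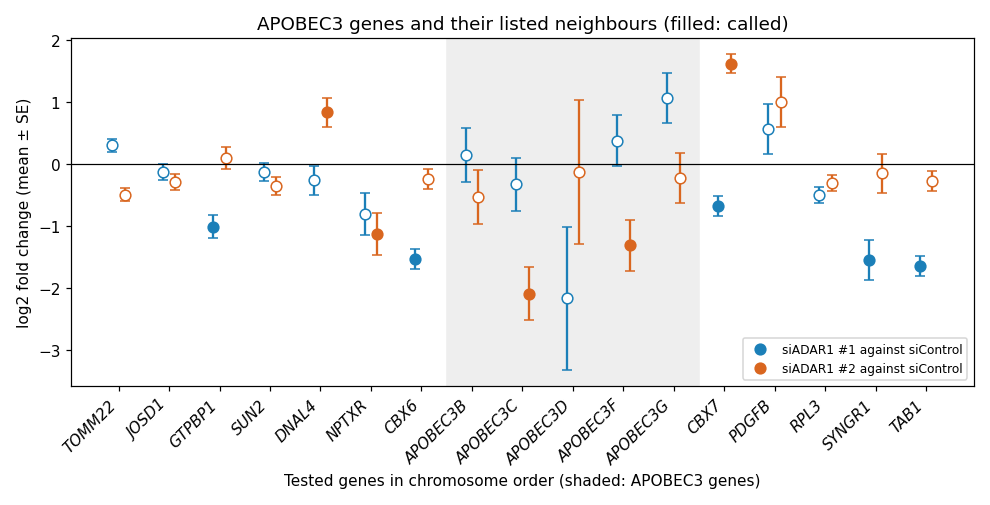
log2FC ± SE (limma) of the tested APOBEC3 genes and of the listed genes on both sides, in chromosome order along the x axis, for each siRNA against siControl (filled points: called, shaded: APOBEC3 genes). APOBEC3C (-2.09), APOBEC3F (-1.30) and NPTXR were lower with siADAR1 #2, and CBX7 and DNAL4 were higher. With siADAR1 #1, CBX6, CBX7, TAB1, SYNGR1 and GTPBP1 were lower.

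A direct comparison of the siRNAs asked which deaminase transcripts responded differently to them. In siADAR1 #2 against siADAR1 #1, 4 of the 9 tested deaminase genes were called (3 lower and 1 higher), beside 33.7% of all genes tested (16.5% lower and 17.3% higher). ADAT2 was higher with siADAR1 #2 by 1.08 ± 0.20 on the log2 scale (adjusted p = 0.00524, limma), and this held under all 17 alternatives. APOBEC3C was lower by a log2FC of -1.76 ± 0.43 (adjusted p = 0.0143, limma), which was -1.49 without siADAR1 #1 replicate 2 and no longer passed (adjusted p = 0.0708), and -1.04 without siADAR1 #2 replicate 1 (adjusted p = 0.0349). APOBEC3F was lower by a log2FC of -1.69 ± 0.41 (adjusted p = 0.0155, limma). This call was lost without siADAR1 #1 replicate 2 (-1.39, adjusted p = 0.0798) or siADAR1 #2 replicate 1 (-1.07, adjusted p = 0.0658). APOBEC3G was lower by a log2FC of -1.29 ± 0.40 (adjusted p = 0.0390, limma), and each of the 4 siADAR1 libraries was needed for it (adjusted p = 0.0804 to 0.155 without 1 of them). For ADAR, ADARB1, ADAT1, ADAT3 and APOBEC3B the difference between the siRNAs did not pass. ADAT3 passed with eBayes without a trend (log2FC 0.67, adjusted p = 0.0491).

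**Figure D4:**
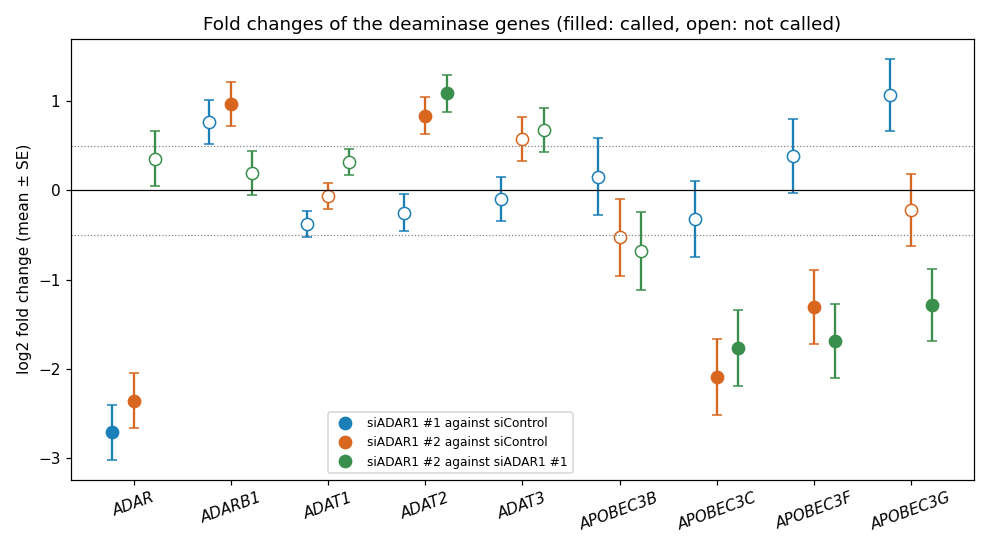
log2FC ± SE (limma) of the 9 tested deaminase genes in each comparison, with filled points for called genes, open points for genes not called, and dotted lines at the log2FC threshold of 0.5. ADAR was called with both siRNAs, whereas ADAT2, APOBEC3C, APOBEC3F and APOBEC3G were called in the comparison between the siRNAs.

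When the 4 siADAR1 libraries were taken as 1 group against siControl, none of the 9 tested deaminase genes was called by limma, beside 0% of all genes tested. At an unadjusted p under 0.05 there were 2869 genes, and eBayes without a trend called 4 and voom called 1. The spread in this comparison includes the difference between the siRNAs. ADAR had the log2FC -2.53 ± 0.32 (adjusted p = 0.0881, limma, which no gene fell below) and was lower in 4 of 4 libraries. ADARB1 had 0.87 ± 0.26 (adjusted p = 0.225, limma) and was higher in 4 of 4. When the changes with each siRNA were averaged in the fit with 3 groups, ADAR (adjusted p = 0.00283) and ADARB1 (adjusted p = 0.0265) passed, among 3601 genes called.

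Of 15 other genes of the deaminase family, 7 were tested. The third ADAR gene, ADARB2, had 1 to 4 reads per library, the testis genes ADAD1 and ADAD2 had at most 2, APOBEC1 had 0 in every library, APOBEC2 had 1 to 9, APOBEC4 had at most 2, and CDA had at most 8. ADA2 had 7 to 23. CDADC1 had 221 to 375 reads and was not called with either siRNA. DCTD, which deaminates deoxycytidylate for thymidine nucleotide synthesis, fell from a mean of 3824 normalized counts with siControl to 2210 with siADAR1 #1 (log2FC -0.80 ± 0.15, adjusted p = 0.0115, limma) and had 3244 with siADAR1 #2 (log2FC -0.24, adjusted p = 0.268). ADA, adenosine deaminase of the purine salvage pathway, rose from 73.8 to 130 with siADAR1 #1 (log2FC 0.80 ± 0.23, adjusted p = 0.0473, limma) and had 107 with siADAR1 #2 (log2FC 0.52, adjusted p = 0.128). The rise of ADA passed under 9 of 17 alternatives and in 0 of the 6 fits with a library left out (adjusted p up to 0.194), and the fall of DCTD passed under 14 of 17 and in 4 of these 6 (adjusted p up to 0.0873). ADAL, which removes a methylated amino group from adenosine monophosphate, was not called against siControl and was higher with siADAR1 #2 than with siADAR1 #1 (log2FC 0.57, adjusted p = 0.0151, limma), a call that held in 4 of the 6 fits with a library left out (adjusted p up to 0.0981).

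Genes that work with these enzymes were counted from lists. Of 28 partners and regulators of A-to-I editing, 6 were lower and 0 higher with siADAR1 #1 (median log2FC -0.11), beside 11% of all genes lower and 6.39% higher. With siADAR1 #2, 10 were lower and 0 higher (median -0.39), beside 16% and 11.6% of all genes. KPNA3, an import receptor, had a mean of 6030 normalized counts with siControl, 5403 with siADAR1 #1 (log2FC -0.16, adjusted p = 0.451) and 943 with siADAR1 #2 (log2FC -2.68 ± 0.13, adjusted p = 0.000249, limma). DICER1, the microRNA-processing nuclease that binds ADAR1, had -0.41 and did not pass with siADAR1 #1, and fell with siADAR1 #2 (log2FC -1.89 ± 0.15, adjusted p = 0.000435, limma). SRSF9, a splicing factor known to restrain editing, gave 0.19, which did not pass, and -1.01 ± 0.11 (adjusted p = 0.000841, limma).

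Of 29 other tRNA modification enzymes, 6 were lower and 0 higher with siADAR1 #1 (median log2FC -0.04), and 12 were lower and 1 was higher with siADAR1 #2 (median -0.38), beside the same shares of all genes (11% lower and 6.39% higher, then 16% lower and 11.6% higher). With siADAR1 #2, in which ADAT2 rose, the wobble uridine enzyme ALKBH8 fell (log2FC -1.73 ± 0.17, adjusted p = 0.000633, limma), as did TRMT6, a subunit of an adenosine methyltransferase (log2FC -0.99 ± 0.12, adjusted p = 0.00113, limma), and METTL1, which methylates guanosine (log2FC -1.67 ± 0.24, adjusted p = 0.00221, limma). With siADAR1 #1 the log2FC was -0.11 for ALKBH8, 0.42 for TRMT6 and -0.54 for METTL1, and none of them was called. Among 16 genes that repair uracil in DNA, the product of APOBEC3 enzymes, or the mismatches it leaves, 5 were lower and 1 was higher with siADAR1 #1 (median log2FC -0.27), beside 17.4% of all genes called. With siADAR1 #2, 6 were lower and 2 higher (median -0.34), beside 27.5%. The mismatch repair gene MSH6 fell with both siRNAs (log2FC -0.72 ± 0.13, adjusted p = 0.0106, and -0.89 ± 0.13, adjusted p = 0.00223, limma). PARP1, a sensor of DNA breaks, fell with siADAR1 #2 (log2FC -1.05, adjusted p = 0.00157, limma) and had a log2FC of -0.008 with siADAR1 #1.

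ADAR and several APOBEC3 genes are known targets of interferon, so interferon-stimulated genes were counted beside them. Of 26 such genes, 0 were called with siADAR1 #1 (median log2FC 0.69, over all genes -0.03), beside 6.39% of all genes higher. With siADAR1 #2, 11.6% of all genes were higher. The share of the 26 was near this at 11.5%, with 3 higher and 0 lower (median 1.65, over all genes -0.02). These were IFIT2 (log2FC 3.19 ± 0.77, adjusted p = 0.0178, limma) and IFIT3 (log2FC 3.16 ± 0.91, adjusted p = 0.0343, limma), antiviral RNA-binding proteins, and STAT2 (log2FC 1.63 ± 0.40, adjusted p = 0.0194, limma), which carries the interferon signal to the nucleus. With siADAR1 #1 they had 1.64, 1.16 and 0.27, which did not pass. In the same siADAR1 #2 libraries APOBEC3C and APOBEC3F were lower, APOBEC3G lay within its siControl range, and APOBEC3H had 0 reads.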

How the data were processed

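The authors sequenced poly(A)+ RNA with 75-bp paired-end reads, and their processing notes and methods name FastQC, Atropos, featureCounts, Salmon, the bcbio-nextgen pipeline, DESeq2 and GRCh38. The deposited values are variance-stabilized log2 values of normalized counts. Undoing the transformation gave whole numbers, called reads here, for 100% of values (tolerance 0.1), and 0 columns were left unused. Whether they are counted reads or rounded estimates from Salmon is not stated. In R 4.3.3, limma 3.58.1 (lmFit, eBayes with trend, two-sided) was fitted to the log2 values in 3 groups of 2 libraries. Steps were tested on simulated data. Symbols were found for 57830 identifiers, and gene lengths were taken from GENCODE release 44. Members and lists were chosen with earlier results of these data known. All members and the other deaminase genes were named, with at most 3 genes of each other list, by smallest adjusted p against siControl, genes beside a member and the 5 most like ADAR; a few genes that this rule or the lists cover are not reported here. Replicate numbers were checked for pairing: differences between replicates correlated at 0.111, 0.130 and 0.150 between groups, so the number was tried as a block. Other alternatives concerned filters, scaling, moderation, voom and left-out libraries. P-values set each difference in means against the spread between these libraries, which limma moderates over all genes tested. Limits from 3 reads cover counting error only.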

Additional observations from a re-analysis of the deposited data

Results flagged for a closer look

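The response to siADAR1 #2 differed from the response to siADAR1 #1 in 4 of the 9 tested deaminase genes, by the limma test of siADAR1 #2 against siADAR1 #1. For ADAT2 the difference in log2FC was 1.08, with both siADAR1 #2 libraries above both siADAR1 #1 libraries. For APOBEC3C it was -1.76, for APOBEC3F -1.69 and for APOBEC3G -1.29, with both siADAR1 #2 libraries below both siADAR1 #1 libraries in each case. Of all genes tested, 33.7% passed the same test. PAX8 reads and the position on the first principal component also differed between the siADAR1 #2 libraries and the others, and their part in these differences was not tested.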

How the results depend on the processing

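Over the 36 results of a deaminase gene in a comparison, 608 alternatives were computed. In 561 the direction and the side of the threshold stayed, in 27 a call was lost, in 7 a call was gained and in 13 the direction turned. The direction of ADAR with either siRNA never turned. With siADAR1 #1, the log2FC of ADAT3 turned to 0.0434 with median-centred libraries and ranged from -0.24 to 0.0426 with a library left out (positive without siADAR1 #1 replicate 1), and that of APOBEC3B ranged from -0.37 to 0.68 (negative without siControl replicate 2, and -0.14 when siADAR1 #1 lost its replicate 2). With siADAR1 #2, ADAT1 turned to 0.0848 with quantile normalization and to 0.0074 without siControl replicate 2, and APOBEC3G ranged from -0.79 to 0.35 (positive without siControl replicate 2). Between the siRNAs, ADAR ranged from -0.054 to 0.76 (negative without siADAR1 #1 replicate 1 or siADAR1 #2 replicate 2) and ADARB1 from -0.0804 to 0.48 (negative without siADAR1 #2 replicate 1). With the siADAR1 libraries as 1 group, APOBEC3B ranged from -0.71 to 0.34 and APOBEC3G from -0.15 to 0.99, both turned without siControl replicate 1, and APOBEC3F from -0.84 to 0.025, turned without siADAR1 #2 replicate 1. None of these values had passed the threshold, and the cause was not tested. Apart from left-out libraries, eBayes without a trend ended the calls of ADARB1 (adjusted p = 0.0727) and APOBEC3F (0.0971) with siADAR1 #2 and those of APOBEC3C (0.0542) and APOBEC3G (0.0628) between the siRNAs, and added that of ADAT3 between them (0.0491). Without a filter APOBEC3F (0.0827) and APOBEC3G (0.0676) were lost in the same comparisons, and APOBEC3F also with recomputed size factors (0.0532) and with the 4 libraries compared alone (0.0555). Genes called for siADAR1 #1 were 1478 without a trend and 312 to 3596 with a library left out. For siADAR1 #2 they were 3105 to 5743 and between the siRNAs 4674 to 6326 with a library left out. With the siADAR1 libraries as 1 group they were 0, against 4 without a trend, 1 with voom and 3601 when the changes with each siRNA were averaged. The replicate block added the call of ADARB1 with siADAR1 #1 and changed no other call of a deaminase gene. It gave 4094, 6065 and 7256 called genes for siADAR1 #1, siADAR1 #2 and the comparison between them. With 2 libraries per group a left-out library leaves a lone one, which is assumed to vary like the other groups. The depth limits APOBEC3H and most of the untested genes on the list of other deaminases, and sharing of reads limits ADAT3, APOBEC3B and APOBEC3D.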

Other observations

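Among 20 E2F, RB and DREAM genes with RELB and NFKB2, which control the cell cycle or the APOBEC3B promoter, 4 were lower and 1 was higher with siADAR1 #1 (median log2FC 0.05), and 9 were lower and 0 higher with siADAR1 #2 (median -0.51). Of all genes tested, 11% were lower and 6.39% higher with siADAR1 #1, and 16% lower and 11.6% higher with siADAR1 #2. MYBL2, a cell cycle activator, fell with both (log2FC -1.82, adjusted p = 0.00341, and -2.003, adjusted p = 0.000626, limma). RB1 fell with siADAR1 #2 (log2FC -1.45, limma) and RBL1 likewise (log2FC -0.91, limma), whereas with siADAR1 #1 they had -0.05 and -0.44. APOBEC3B itself was not called in any comparison.

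Of 20246 other tested genes, those whose log2 values followed ADAR most closely over the 6 libraries were MTCH2 (Pearson's r = 0.999), PKIA (0.998), PRKX (0.997), ATIC (0.996) and ZNF883 (0.995). These are descriptions of the same 6 libraries in which ADAR differs by transfection, and no deaminase gene was among them.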
